A study of Mus musculus with 11 samples.

Results

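The genes of the neuronal cytoskeleton were followed in the mouse adrenal gland: the neurofilament subunits Nefl, Nefm and Nefh, the related filament proteins Prph and Ina, the tubulins Tubb3, Tuba4a and Tuba8, and the growth-associated genes Stmn2 and Gap43. They are 10 of the 23337 gene symbols in the count table, taken by name, and all 10 were found there. The set was chosen by the measured difference between ORX and intact mice, whose results were known when it was put together, so the values of its members in that comparison are a description and are given without p-values. The study sequenced RNA of adrenal glands from males of the mouse strain Hsd:Athymic Nude-Foxn1nu, which lack a thymus and mature T cells, in 5 samples of the group Intact and 6 of the group ORX, described in the labels as orchectomized, meaning that the testes were removed. All animals of both groups had received VCaP cells, a line from a human prostate cancer, at an age of 5 to 6 weeks (study week 0), were allocated to their group at week 7 and were killed at week 15. No batch is named, and the labels give no tumour size or processing date.

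Neurofilaments are the intermediate filaments of nerve cells. The light chain NEFL forms the core with the medium and heavy chains NEFM and NEFH, whose long tails project sideways, while peripherin (Prph) and alpha-internexin (Ina) can join the same filament and peripherin is typical of peripheral neurons. Microtubules are built from pairs of alpha- and beta-tubulin, of which Tubb3 is the beta isotype used as a neuronal marker, and Tuba4a and Tuba8 are 2 of the less common alpha isotypes. Stathmin-2 (Stmn2) binds free tubulin in growing axons, and GAP-43 lies under the membrane of growth cones. In the adrenal, such genes are known from the medulla, where chromaffin cells and the few ganglion cells derive from the neural crest and lie among nerve fibres and Schwann cells.

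Library totals ranged from 11368447 to 15029582 counts, and 14139 genes had enough counts to be tested. The library ORX 6 stood apart in the balance of long and short transcripts. Its median deviation from the other ORX libraries was 0.72 on the log2 scale for the shortest 10% of transcripts and -0.67 for the longest 10%. Without ORX 6 the same 5 members were called at log2 fold changes from -3.06 (Nefm) to -1.37 (Tuba8). Adrenal identity was checked by markers: 10 cortex genes summed to between 36978 and 97060 CPM and 16 chromaffin genes to between 7891 and 33300 CPM, where CPM stands for read counts per 1e6 counts of the TMM-scaled library. In RNA of a bulk gland fewer cells of a type and less RNA per cell cannot be told apart in any result here.

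The members split into 5 that were lower in ORX and 4 that were not, and 1 was too rare to test. Nefl, Nefm, Tubb3, Tuba4a and Tuba8 were called lower (edgeR's quasi-likelihood test, Benjamini-Hochberg adjusted p under 0.05 over all 14139 genes). Nefh, Prph, Ina and Stmn2 were not called, and 0 members were called higher, which was also the count at an unadjusted p under 0.05, with DESeq2 and with limma voom. Of all tested genes 6.21% were called, 3.18% lower and 3.03% higher. Since the members were chosen with this comparison in view, nothing is read from their count against that background. In Nefl and Tubb3 every ORX library lay below every intact library, as it did in 2.36% of all tested genes; in 2.92% every ORX library lay above, and the groups did not overlap in 5.28% in all. The median log2 fold change of the 9 tested members was -1.36, against 0.01 for all tested genes. Without intact 5 the number called lower was 3, Tuba4a and Tuba8 being lost.

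**Figure D1:**
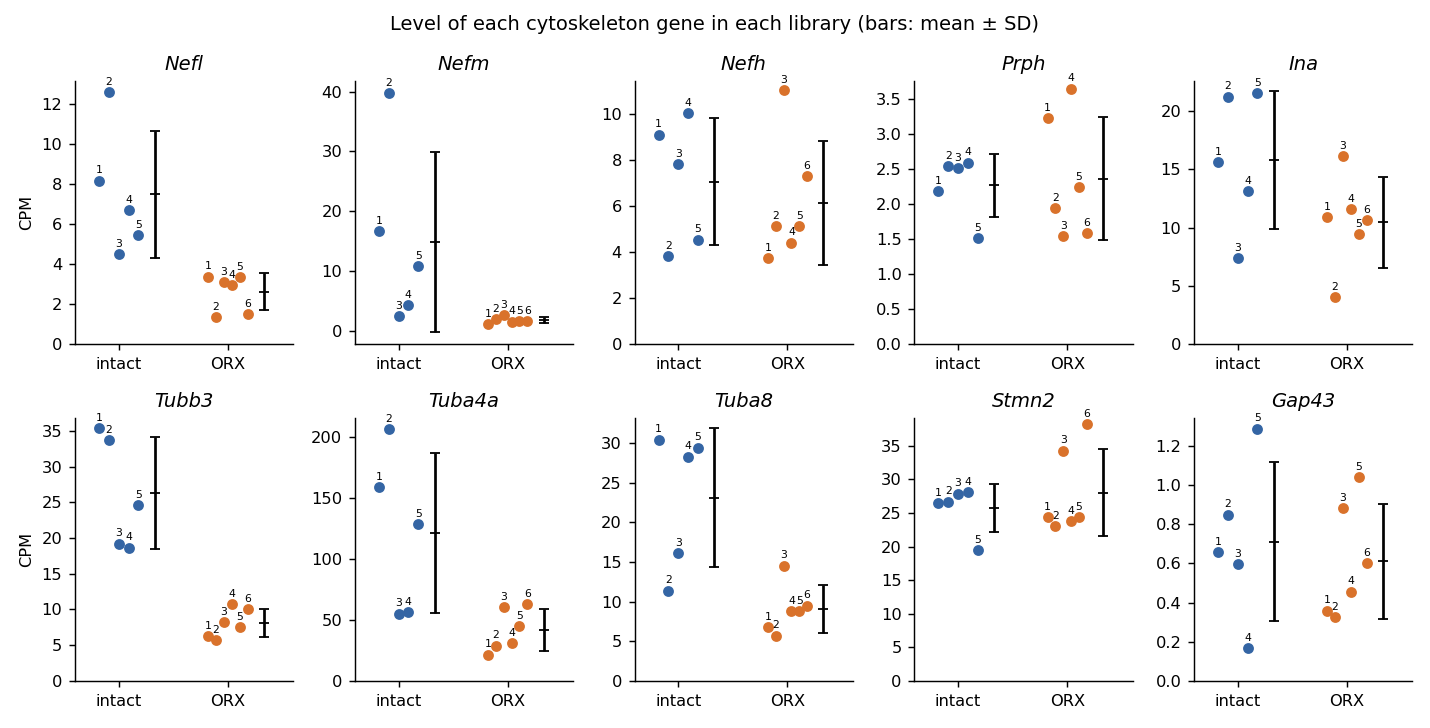
Each point is 1 library (numbers are the sample numbers of the labels) and the vertical axis of each panel is the level of 1 gene in CPM, with 5 intact libraries in blue, 6 ORX libraries in orange and a black bar for mean ± SD. In Nefl and Tubb3 the groups do not overlap, Nefm spreads from 2.45 to 39.8 CPM in the intact group alone, and the groups overlap in Stmn2, Prph and Nefh, with ORX 3 and ORX 6 above every intact library in Stmn2.

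Among the neurofilament chains, the light and medium chains were lower in ORX and the heavy chain was not. Nefl (chromosome 14, 68083863 to 68089095 on GRCm38, plus strand) was at 8.17, 12.6, 4.50, 6.69 and 5.46 CPM in intact 1 to 5, and in ORX at 1.36 (lowest), 3.03 (median) and 3.38 CPM (highest). The lowest intact library, intact 3, thus lay above the highest ORX library. The group means were 7.48 ± 3.16 and 2.61 ± 0.926 CPM (SD, n = 5 and 6), a 2.86-fold lower level in ORX (log2 fold change -1.51 ± 0.33, SE). These values rest on 68 to 148 counts per intact library and 20 to 47 per ORX library.

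Nefm, the medium chain (chromosome 14, 68082590 to 68124846, minus strand), had the largest difference of the set and the widest spread. It was at 16.7, 39.8, 2.45, 4.27 and 10.8 CPM in intact 1 to 5. The ORX libraries held 1.15 CPM at the lowest, 1.59 at the median and 2.58 at the highest, with 16 to 35 counts each. Intact 1, 2 and 5 were far above every ORX library, whereas intact 3 lay just below ORX 3. The mean went from 14.8 ± 15.1 to 1.73 ± 0.488 CPM, 8.48-fold lower (log2 -3.08 ± 0.59). Without intact 2 the log2 fold change was -2.30. The annotated span of Nefm covers that of Nefl on the other strand, and their exons share 1108 bases. The sources used here do not settle whether the reads were counted by strand, so reads of that stretch cannot be told apart.

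Nefh, the heavy chain (chromosome 11, 4938754 to 4948064), showed no such split. It was at 9.11, 3.82, 7.82, 10.04 and 4.55 CPM in intact 1 to 5, and between 3.73 and 11.1 CPM (median 5.13) in ORX. The ranges covered each other, and the highest value of all belonged to ORX 3. The means were 7.07 ± 2.76 and 6.13 ± 2.70 CPM (log2 -0.21 ± 0.33). Intact 2, the highest library for Nefl and Nefm, was the lowest intact library for Nefh.

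The make-up of the 3 chains therefore differed between libraries. Levels of different genes are set side by side per kilobase of merged annotated exons. On that scale Nefm was 38.1%, 59.5%, 11.4%, 14.1% and 40.3% of the summed chains in intact 1 to 5, and 9.32% to 16.6% in ORX. Per kb of the longest transcript, a choice added after the data were seen, the share of Nefm was 16.8% to 69.8% in intact and 13.9% to 23.9% in ORX. Per kb of merged exons, the scale of all further values here, the share of Nefh was 32.8 ± 18.05% in intact and 57.6 ± 11.3% in ORX. That of Nefl was 34.6 ± 2.53% and 30.7 ± 12.3%. Intact 3 and 4 had the heavy chain as the largest of the 3, like 5 of the ORX libraries, while ORX 1 had slightly more Nefl than Nefh (46.8% and 43.8%). The sum of the chains was 6.54 ± 3.15 CPM per kb in intact and 2.61 ± 0.778 in ORX, with ORX 3 (4.13) above intact 3 (3.71).

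**Figure D2:**
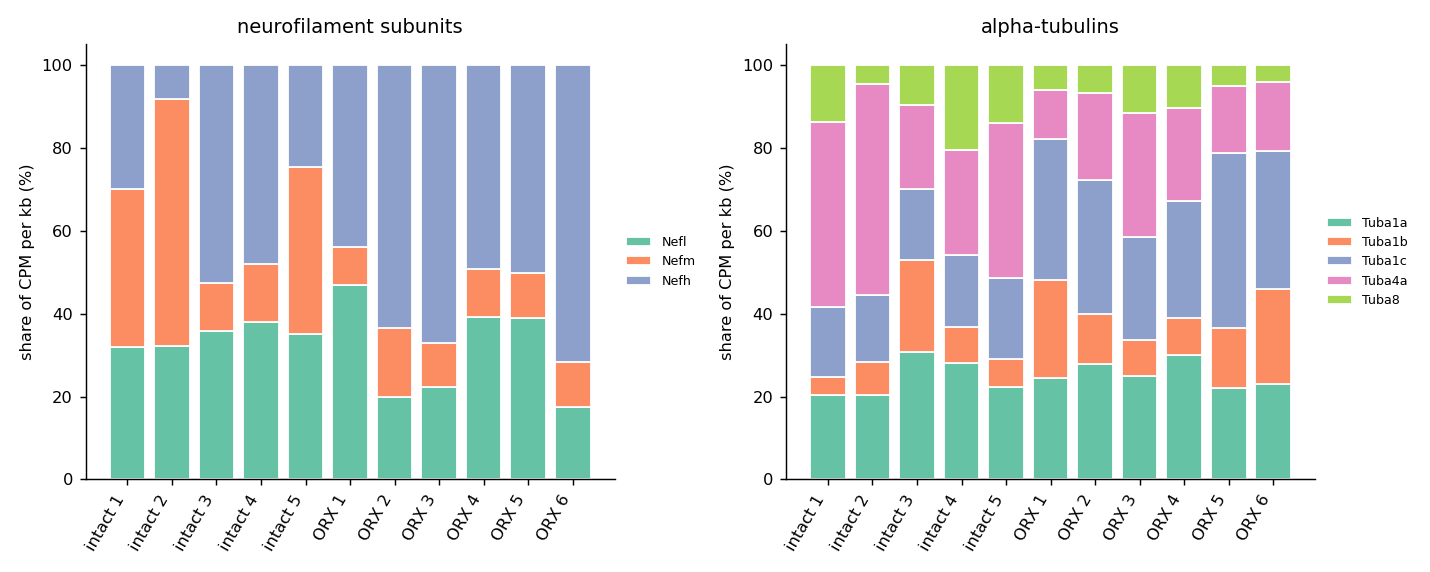
Each bar is 1 library and shows the share (%) of each gene in the summed CPM per kb of its group of genes, on the left the 3 neurofilament chains and on the right 5 alpha-tubulins. Nefm takes 38.1% to 59.5% in intact 1, 2 and 5 and at most 16.6% in the other libraries. Tuba1c takes 17.3 ± 1.27% of the alpha-tubulins in intact and 32.5 ± 5.88% in ORX, in a pool that holds the lower members Tuba4a and Tuba8.

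The other filament proteins of the set, Prph and Ina, were not called. Prph (chromosome 15, 99055174 to 99058978) was at 2.19, 2.55, 2.52, 2.59 and 1.52 CPM in intact 1 to 5 and at 1.55 to 3.65 CPM (median 2.09) in ORX, 20 to 48 counts per library. Its means of 2.27 ± 0.453 and 2.37 ± 0.881 CPM gave a log2 fold change of 0.06 ± 0.29, and the sign turned without intact 5, ORX 1 or ORX 4 (-0.06, -0.06 and -0.12). Ina (chromosome 19, 47014698 to 47025327) was at 15.6, 21.2, 7.42, 13.1 and 21.5 CPM in intact 1 to 5 and at 4.02, 10.8 and 16.1 CPM (lowest, median, highest) in ORX. The groups overlapped, with intact 3 below 5 ORX libraries (log2 -0.59 ± 0.33). Ina shares 456 exon bases on opposite strands with Nt5c2, a nucleotidase gene, which was at 64.9 ± 10.6 and 77.0 ± 7.07 CPM (edgeR adjusted p = 0.285).

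All 3 tubulin members were lower in ORX. Tubb3 (chromosome 8, 123411424 to 123422015) was at 35.4, 33.7, 19.2, 18.7 and 24.6 CPM in intact 1 to 5. In ORX it was at 5.71 (lowest), 7.89 (median) and 10.7 CPM (highest). The gap between the groups, from 10.7 to 18.7 CPM, was wider than the whole range of the ORX libraries. The means were 26.3 ± 7.88 and 8.10 ± 1.99 CPM, 3.25-fold lower (log2 -1.70 ± 0.23). Leaving out any 1 library gave values from -1.82 to -1.57.

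Tuba4a, an alpha-tubulin abundant in brain and muscle (chromosome 1, 75214228 to 75219865), was the most abundant member. It was at 159, 206, 55.0, 56.2 and 129 CPM in intact 1 to 5 and at 21.6, 37.9 and 63.2 CPM (lowest, median, highest) in ORX. Intact 1, 2 and 5 were above every ORX library, while intact 3 and 4 lay within the range of the ORX group, below ORX 3 and ORX 6. The means were 121 ± 65.7 and 41.7 ± 17.4 CPM (log2 -1.54 ± 0.37). The call ended without any 1 of intact 1, 2 and 5 and ORX 1, 2, 4 and 5, at log2 fold changes no nearer to 0 than -1.26. Its exons share 1379 bases on opposite strands with Stk16, a kinase gene, which was at 77.2 ± 4.08 CPM in intact and 82.5 ± 21.9 in ORX (edgeR adjusted p = 0.769, log2 0.10 ± 0.16), with ORX 6 the highest at 125 CPM.

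Tuba8, a further alpha isotype (chromosome 6, 121210696 to 121226854), was at 30.4, 11.4, 16.1, 28.3 and 29.4 CPM in intact 1 to 5. The ORX libraries were at 5.71, 8.82 and 14.5 CPM (lowest, median, highest). Only ORX 3 passed an intact library, and that library was intact 2, which was high in the other called members. The means were 23.1 ± 8.75 and 9.03 ± 3.05 CPM (log2 -1.36 ± 0.29), and the call ended without intact 5 (-1.26).

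Promoter sequence from RefSeq (GRCm38.p6) is shown for the 3 tubulins, which were lower together, and for Prph and Ina, which were not called. The sequences of Nefl, Nefm, Nefh, Stmn2 and Gap43 are not shown here. Each stretch is the part of the 250 bases before the RefSeq start that lies in no annotated exon, 5′ to 3′. The stretch of Tubb3 ends 129 bases and that of Tuba8 38 bases before the start, while the others reach it. Capitals mark GGGCGG (the GC box, or CCGCCC on the other strand), TATAAA (the TATA box, or TTTATA) and CACGTG (an E-box, the same on both strands).
Tubb3, chr8:123411303-123411423, plus strand: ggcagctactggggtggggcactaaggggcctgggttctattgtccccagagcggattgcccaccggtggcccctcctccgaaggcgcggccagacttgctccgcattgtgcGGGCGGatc
Tuba4a, chr1:75219295-75219425, minus strand: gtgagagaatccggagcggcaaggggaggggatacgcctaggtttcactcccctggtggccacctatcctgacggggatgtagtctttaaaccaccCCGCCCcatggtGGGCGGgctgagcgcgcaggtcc
Tuba8, chr6:121210484-121210695, plus strand: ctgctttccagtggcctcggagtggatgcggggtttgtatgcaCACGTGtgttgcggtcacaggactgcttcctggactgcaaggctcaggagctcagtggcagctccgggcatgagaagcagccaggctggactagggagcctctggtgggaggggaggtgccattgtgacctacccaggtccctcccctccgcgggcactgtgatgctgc
Prph, chr15:99054924-99055173, plus strand: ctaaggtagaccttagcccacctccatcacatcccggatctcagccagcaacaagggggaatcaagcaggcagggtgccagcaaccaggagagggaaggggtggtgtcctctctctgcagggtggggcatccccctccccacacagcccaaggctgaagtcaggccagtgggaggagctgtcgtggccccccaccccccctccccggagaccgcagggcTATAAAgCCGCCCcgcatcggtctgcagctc
Ina, chr19:47014431-47014680, plus strand: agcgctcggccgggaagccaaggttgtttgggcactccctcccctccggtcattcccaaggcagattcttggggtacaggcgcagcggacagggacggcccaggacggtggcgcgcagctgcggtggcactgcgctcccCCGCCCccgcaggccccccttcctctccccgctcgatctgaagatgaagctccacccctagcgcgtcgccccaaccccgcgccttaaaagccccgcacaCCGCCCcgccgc

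Tuba4a held 2 GC boxes in its 131 bases, Tubb3 1 in 121 bases, Ina 2 and Prph 1 in 250 bases each, and Tuba8 none in 212 bases. In the same windows of all 32817 RefSeq promoters a GC box stood in 27.4%, 12.9%, 32.7%, 32.7% and 27.2%. The TATA box was found in Prph alone of these 5 stretches (12.4% of all promoters), and CACGTG in Tuba8 alone (4.74%). The bases next to the start were not searched in Tubb3 and Tuba8, so a match there would not be seen. AGAACA, the half-site shared by the androgen and glucocorticoid receptors (TGTTCT on the other strand), was in none of the 5 stretches, and stood in 8.39% to 16.1% of all promoters in windows of these lengths. No match overlapped another. Such matches are letters in a window and say nothing of binding.

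Of the growth-associated members Stmn2 was not called and Gap43 was too rare to test. Stmn2 (chromosome 3, 8509360 to 8561606) was at 26.5, 26.7, 27.9, 28.1 and 19.5 CPM in intact 1 to 5 and at 23.0, 24.4 and 38.2 CPM (lowest, median, highest) in ORX. Intact 5 was the lowest of all libraries, and ORX 3 and ORX 6 the highest. The means were 25.7 ± 3.57 and 28.0 ± 6.52 CPM, a log2 fold change of 0.12 ± 0.17, the smallest standard error of the set. Without ORX 6 it was 0.02. Gap43 (chromosome 16, 42248442 to 42340651) had 9, 10, 9, 2 and 17 counts in intact 1 to 5 and 5 to 13 counts in the ORX libraries, too few for the test. This came to 0.712 ± 0.408 and 0.612 ± 0.293 CPM, and a difference was not detectable at this depth.

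Per kilobase, the order of the members was led by the tubulins in intact glands. Tuba4a was at 32.7 ± 17.8 CPM per kb, Tubb3 at 14.1 ± 4.22 and Tuba8 at 10.2 ± 3.87, of which the last 2 do not differ beyond their spread. Ina (4.87 ± 1.82) and Stmn2 (4.59 ± 0.637) lay close together, followed by Nefm (2.56 ± 2.60), Nefl (2.21 ± 0.935) and Nefh (1.77 ± 0.691), whose spreads overlap. Prph (1.14 ± 0.226) and Gap43 (0.467 ± 0.268) were the lowest. In ORX Tuba4a was again first (11.3 ± 4.69). Stmn2 (5.00 ± 1.16), Tubb3 (4.33 ± 1.07), Tuba8 (3.99 ± 1.35) and Ina (3.23 ± 1.20) came next with overlapping spreads, then Nefh (1.53 ± 0.675), Prph (1.18 ± 0.440), Nefl (0.773 ± 0.274), Gap43 (0.402 ± 0.192) and Nefm (0.299 ± 0.0843). The spreads of Gap43 and Nefm overlap. Per kb of the longest transcript Nefm (0.470 ± 0.132) was above Gap43 (0.431 ± 0.206) in ORX, and Stmn2 over all libraries was at 7.90 in place of 4.82. On that scale Stmn2 was at 7.54 ± 1.05 in intact, further above Ina (4.87 ± 1.82). In ORX Stmn2 was then at 8.21 ± 1.91, and its spread did not overlap those of Tubb3, Tuba8 and Ina. The place of Stmn2 in the order thus depends on the length used.

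Within the alpha-tubulins, Tuba4a was 44.4%, 51.0%, 20.3%, 25.1% and 37.5% of the pool of 5 genes (Tuba1a, Tuba1b, Tuba1c, Tuba4a and Tuba8, per kb) in intact 1 to 5 and 19.7 ± 6.28% in ORX. Tuba1c, a broadly expressed isotype that is no member, made up 16.1% to 19.4% in intact and 24.8% to 42.1% in ORX, without overlap of the groups. Its own level was at log2 0.40 ± 0.31 (edgeR adjusted p = 0.473). The sum of the pool, which holds the lower members Tuba4a and Tuba8, was 86.4 ± 19.4 CPM per kb in intact and 59.4 ± 25.3 in ORX. The share of Tuba1c thus depends on the chosen members as well as on its own level. Tubb3 made up 4.39 ± 0.990% of 7 beta-tubulins in intact and 2.23 ± 0.683% in ORX. ORX 4 (3.42%) was above intact 2 (3.40%) on that scale, so the groups that were apart in Tubb3 itself met in its share. Tubulin isotypes are similar in sequence, and the counting could have split reads between them.

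The remaining 17 tubulin genes gave 13 that were tested, of which 0 were called in either direction by edgeR, DESeq2 or limma voom, and 3 were lower at an unadjusted p under 0.05. Their median log2 fold change was -0.32. Tubb6, a beta-tubulin of many tissues, was at 356 ± 238 and 148 ± 76.1 CPM, a log2 fold change of -1.27 ± 0.48 (edgeR adjusted p = 0.134), and Tuba1a at -0.48 ± 0.20 (edgeR adjusted p = 0.176). These 2 were chosen after their values were seen. Without ORX 6, 1 gene of this list was called lower. Of 16 tested genes that fold or modify tubulin, Ttll11 (edgeR adjusted p = 0.0240, log2 1.47 ± 0.34) and Tbcd (edgeR adjusted p = 0.0385, log2 0.50 ± 0.13) rose and Ttll7 (edgeR adjusted p = 0.0270, log2 -1.11 ± 0.26) fell. TTLL11 and TTLL7 add glutamate chains to tubulin and TBCD is a folding factor. The 2 rises became 0 without intact 2, intact 5 or ORX 2 and 1 without intact 1, ORX 1, ORX 4 or ORX 5, and the fall was lost without any 1 of intact 1, 2 and 5 and ORX 1, 2 and 5.

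Other stathmins and microtubule-associated proteins moved both ways: of 23 tested, 2 rose, 2 fell and 19 did not pass (median log2 -0.09), against 2 higher and 5 lower with DESeq2, 2 and 1 with limma voom, and 2 and 8 at an unadjusted p under 0.05. Map6d1, which stabilises microtubules, rose from 0.665 ± 0.271 to 12.1 ± 7.48 CPM, a log2 fold change of 4.16 ± 0.54 (edgeR adjusted p = 0.000655), with every ORX library above every intact one. Mapt, the gene of tau, rose from 111 ± 20.7 to 204 ± 55.0 CPM, a log2 fold change of 0.88 ± 0.21 (edgeR adjusted p = 0.0261). Dclk1, a doublecortin-like kinase, fell from 11.7 ± 7.80 to 2.05 ± 1.04 CPM, a log2 fold change of -2.50 ± 0.51 (edgeR adjusted p = 0.0124). It was at 17.4, 16.8 and 17.9 CPM in intact 1, 2 and 5, but at 3.78 and 2.51 in intact 3 and 4, below ORX 3 (4.13). Map1b (listed as Mtap1b), an axonal microtubule protein, fell from 262 ± 84.1 to 126 ± 51.4 CPM, a log2 fold change of -1.06 ± 0.29 (edgeR adjusted p = 0.0443), a call that ended without any 1 of 9 libraries. Stmn3, the most abundant stathmin per kb, was at log2 0.08 ± 0.24 (edgeR adjusted p = 0.876). Without intact 3, 5 genes of the list were lower. Without intact 1, 2, 4 or 5 or ORX 1, 4, 5 or 6, 1 was lower. Without intact 1, 2 or 5 or ORX 1, 2, 4 or 5, 1 was higher.

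Intermediate filament genes outside the set included 4 of 16 tested that fell and 0 that rose in the edgeR fit (1 was higher at an unadjusted p under 0.05, and 0 with DESeq2 or limma voom). Their median log2 fold change was -0.64, and their summed level was 1159 to 1795 CPM in intact and 673 to 1118 in ORX. Gfap, the filament of glia, fell from 18.6 ± 14.4 to 3.23 ± 1.23 CPM, a log2 fold change of -2.53 ± 0.52 (edgeR adjusted p = 0.0124), again with intact 1, 2 and 5 high (20.0, 39.1 and 24.4 CPM) and intact 3 and 4 low (5.50 and 4.27 CPM). Krt18, a keratin of simple epithelia, fell by 3.26 ± 0.80 on the log2 scale (edgeR adjusted p = 0.0299). It was at 22.3, 12.4 and 11.6 CPM in intact 1, 2 and 5. In intact 3 and 4 it was at 1.26 and 0.921 CPM, within the ORX range (0.0649 to 2.11). The Krt18 call ended without any 1 of 7 libraries. The linker plectin (Plec) fell by 0.83 ± 0.19 (edgeR adjusted p = 0.0230) and vimentin (Vim), the filament of mesenchymal cells, by 0.85 ± 0.23 (edgeR adjusted p = 0.0407). The same list had 6 lower with DESeq2, 2 with limma voom and 7 at an unadjusted p under 0.05. The count of 4 became 1 without intact 2, intact 5 or ORX 5 and 2 without intact 1, ORX 1, ORX 2 or ORX 4. Over the 15 lists outside the set together, 186 genes were tested, and edgeR called 11 lower (5.91%) and 7 higher (3.76%). Of all tested genes 3.18% were called lower and 3.03% higher. The lists were chosen with earlier results of these data known, so nothing is read from these shares.

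Genes of axonal transport, membrane skeleton, growth and neurofilament regulation were tested as 4 further lists. Among 16 axonal transport motors 0 passed with edgeR (2 higher and 2 lower at an unadjusted p under 0.05, 1 each way with DESeq2, 1 higher with limma voom). Without intact 3, 1 motor was higher and 1 lower, without intact 4 1 was higher and without ORX 4 1 was lower. Of 10 membrane skeleton genes (spectrins, ankyrins, Add2, Epb41l1 and Epb41l3), the ankyrin gene Ank1 fell from 9.92 ± 3.79 to 3.54 ± 0.966 CPM. Its log2 fold change was -1.48 ± 0.28 (edgeR adjusted p = 0.00847), and without ORX 3 2 genes of the list fell. In that list 3 were lower with DESeq2, 2 with limma voom and 5 at an unadjusted p under 0.05. Of 17 tested growth cone and axon growth genes, the neuropeptide galanin (Gal) fell from 201 ± 163 to 57.8 ± 25.02 CPM, a log2 fold change of -1.80 ± 0.47 (edgeR adjusted p = 0.0380). In that list 3 were lower with DESeq2, 0 with limma voom and 7 at an unadjusted p under 0.05. The Gal call ended without any 1 of intact 1, 2 and 5 and ORX 1, 2, 4 and 5, while 2 genes of the list fell without intact 3 or ORX 6 and 3 without ORX 3. Of 11 kinases and ligase adaptors that act on neurofilaments 0 passed with edgeR or limma voom, 1 was lower with DESeq2 and 2 were lower at an unadjusted p under 0.05.

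**Figure D3:**
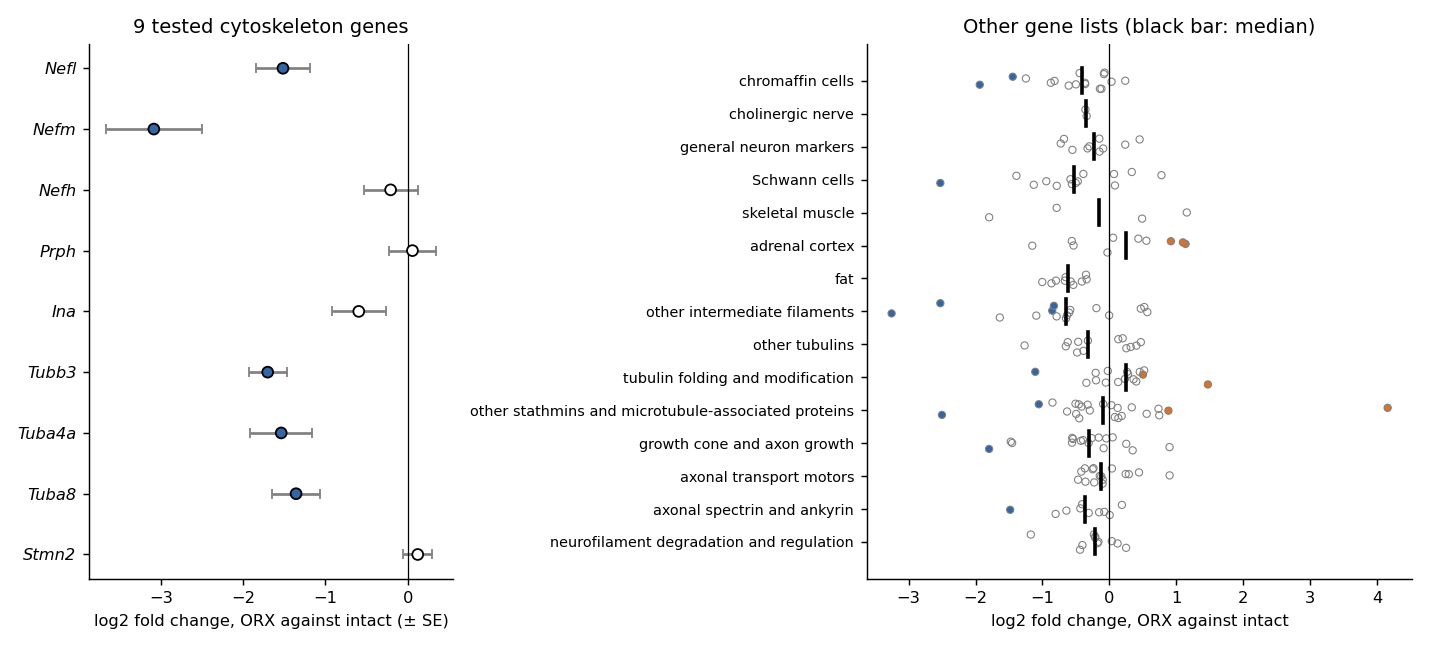
The left panel has the log2 fold change of ORX over intact on its horizontal axis, with its standard error, for the 9 tested members, filled where a gene was called lower. The right panel gives the tested genes of 15 other lists as circles, filled blue (lower) or orange (higher) where they passed and open where they did not, with the median as a black bar; Nefm at -3.08 lies furthest left of the members, and the medians of 13 lists are below 0.

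Markers of the cells that could hold the members moved in part with them. Of 16 chromaffin cell markers 2 fell, Slc18a2, the vesicular monoamine transporter (70.3 ± 28.0 to 25.8 ± 4.78 CPM, log2 -1.44 ± 0.24, edgeR adjusted p = 0.00411), and neuropeptide Y, Npy (edgeR adjusted p = 0.0295, log2 -1.94 ± 0.47), and 14 did not pass. In the same list 8 were lower at an unadjusted p under 0.05, 5 with DESeq2 and 1 with limma voom, and 14 of the 16 had a log2 fold change below 0 (median -0.41). Th, tyrosine hydroxylase, was at log2 -1.25 ± 0.36 (edgeR adjusted p = 0.0565), Dbh at -0.87 ± 0.26 (edgeR adjusted p = 0.0653), Chga at -0.12 ± 0.25 (edgeR adjusted p = 0.819) and Pnmt, which makes adrenaline, at 0.24 ± 0.38 (edgeR adjusted p = 0.756). The count of 2 was 1 without intact 1, 2 or 5 or ORX 1, 2, 4 or 5, 4 without intact 3 and 5 without ORX 3. The summed level was 13932 to 33300 CPM in intact and 7891 to 18958 in ORX, and the mean log2 CPM of the 16 markers was 8.18 ± 0.24 in intact and 7.65 ± 0.26 in ORX. 

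The members were also set against that chromaffin score, which was itself lower in ORX (a difference of -0.53 on the log2 scale), so that a gene with equal levels in both groups comes out higher in ORX on this scale. The log2 level of Tubb3 minus the score was -3.50 ± 0.25 in intact and -4.64 ± 0.29 in ORX, with no overlap (-3.85 to -3.18 against -5.02 to -4.18). Stmn2 minus the score was -3.50 ± 0.32 and -2.86 ± 0.16, with every ORX library above every intact one. The share of all tested genes whose groups were apart on this scale was not counted, so nothing is read from these separations. The differences of the group means were -0.93 for Nefl, -1.87 for Nefm, -0.91 for Tuba4a and -0.77 for Tuba8, each with overlapping groups, and -0.07 for Ina, 0.33 for Nefh and 0.54 for Prph. When the score was a covariate in the fit, 0 members were called, with log2 fold changes of -1.40 for Nefl, -1.51 for Nefm, -1.06 for Tubb3, -0.82 for Tuba8 and -0.28 for Tuba4a. With the score as a covariate 19 of all genes were called lower and 85 higher. Because the score and the group move together, their parts in the members' values cannot be told apart.

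**Figure D4:**
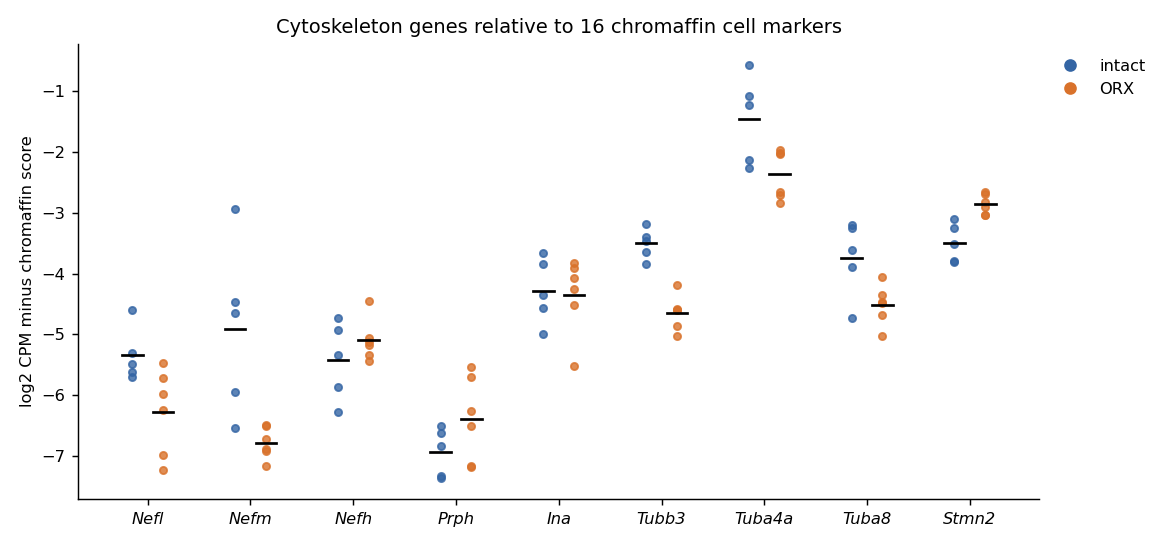
Each point is 1 library, intact in blue (n = 5) and ORX in orange (n = 6), and the vertical axis is the log2 CPM of the gene minus the mean log2 CPM of 16 chromaffin cell markers in the same library, with the group mean as a black bar. On this scale, whose reference is itself lower in ORX, Tubb3 is lower and Stmn2 higher in ORX without overlap, and Ina has nearly the same mean in both groups (-4.28 and -4.35).

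Markers of nerve, glia, muscle and fat were read for the same libraries. The cholinergic nerve genes Chat, Slc18a3 and Slc5a7 were near 0, with at most 2, 4 and 6 counts in a library. The other 2 genes of that list, Isl1 and Hoxb9, were not called (edgeR, DESeq2 or limma voom, and 0 at an unadjusted p under 0.05), and Hoxb9 alone gave most of the list's summed 257 to 1212 CPM in intact and 312 to 736 in ORX. Of 14 Schwann cell markers only Gfap fell with edgeR. Sox10 was at 6.11 ± 1.98 and 4.31 ± 1.03 CPM (edgeR adjusted p = 0.282), and the median log2 fold change of the 14 markers was -0.53, with 10 below 0. At an unadjusted p under 0.05, 5 were lower and 2 higher, against 2 lower with DESeq2 and 0 called with limma voom. Their summed level was 257 to 323 CPM in intact and 273 to 338 in ORX. Without intact 3, 3 Schwann markers fell, and 2 without intact 4. General neuron markers gave 0 calls among 10 with edgeR, against 1 higher and 1 lower with DESeq2, 1 lower with limma voom, and 1 higher and 3 lower at an unadjusted p under 0.05. Without intact 3 the edgeR count was 1 higher and 1 lower, without ORX 3 2 lower and without ORX 6 1 lower. Skeletal muscle, a known site of Tuba4a and Tuba8, was represented by Ckm at 0.562 ± 0.423 and 0.216 ± 0.133 CPM and Acta1 at 7.41 ± 8.49 and 2.14 ± 1.90 CPM (edgeR adjusted p = 0.195), with list sums of 34.5 to 58.3 CPM in intact and 17.7 to 44.5 in ORX; of its 4 tested genes 0 were called by edgeR, DESeq2 or limma voom, and 1 was higher and 1 lower at an unadjusted p under 0.05. Fat markers summed to 6980 to 16739 CPM in intact and 4306 to 18704 in ORX. Of 10 tested 0 were called by any of these tools, and 1 was lower at an unadjusted p under 0.05. With edgeR 1 was lower without intact 2 and 3 without ORX 3. All 10 fat markers had a log2 fold change below 0 (median -0.62), as had most chromaffin and Schwann cell markers. Of 10 adrenal cortex markers 3 rose, the corticotropin receptor Mc2r and the steroid enzymes Hsd3b1 and Cyp21a1, by log2 1.10 ± 0.19, 1.14 ± 0.21 and 0.92 ± 0.20 (edgeR adjusted p = 0.00530, 0.00720 and 0.0187), and 0 fell with edgeR or limma voom, against 1 with DESeq2 and 1 at an unadjusted p under 0.05. Leaving out ORX 2 or ORX 5 ended the Cyp21a1 call. The part of nerve, glia, muscle, fat and cortex in the members' differences was not tested.

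The neurofilament chains also varied between libraries of the same group. For the mean of the 3 neurofilament chains, centred within each group, the 5 most similar of 13717 other genes over the 11 libraries were Trib1, Spry4, Fam129b, Fosl1 and Myo10 (Pearson's r 0.970, 0.960, 0.935, 0.933 and 0.929, as a measure of likeness picked as the highest of many). Of the chains themselves Nefm had the widest centred spread, from -1.89 to 2.05. The r with that mean was 0.872 for Nefm and 0.705 for Nefl but 0.091 for Nefh, so the mean hardly stands for the heavy chain. Tuba4a, which is not in that mean, had an r of 0.784 with it. TRIB1 is a pseudokinase and SPRY4 an inhibitor of receptor tyrosine kinase signalling, FOSL1 is an AP-1 transcription factor and MYO10 an unconventional myosin. Fosl1 was at 23.8 and 35.9 CPM in intact 1 and 2, at 0.464 in intact 3 and at 7.37 in ORX 3, its highest ORX library. Between the groups Trib1 (edgeR adjusted p = 0.0429, log2 -0.87 ± 0.23) and Fam129b (edgeR adjusted p = 0.0255, log2 -0.92 ± 0.22) fell, calls that ended without any 1 of 8 and of 6 libraries, while Spry4, Fosl1 and Myo10 did not pass (edgeR adjusted p = 0.128, 0.156 and 0.323).

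**Figure D5:**
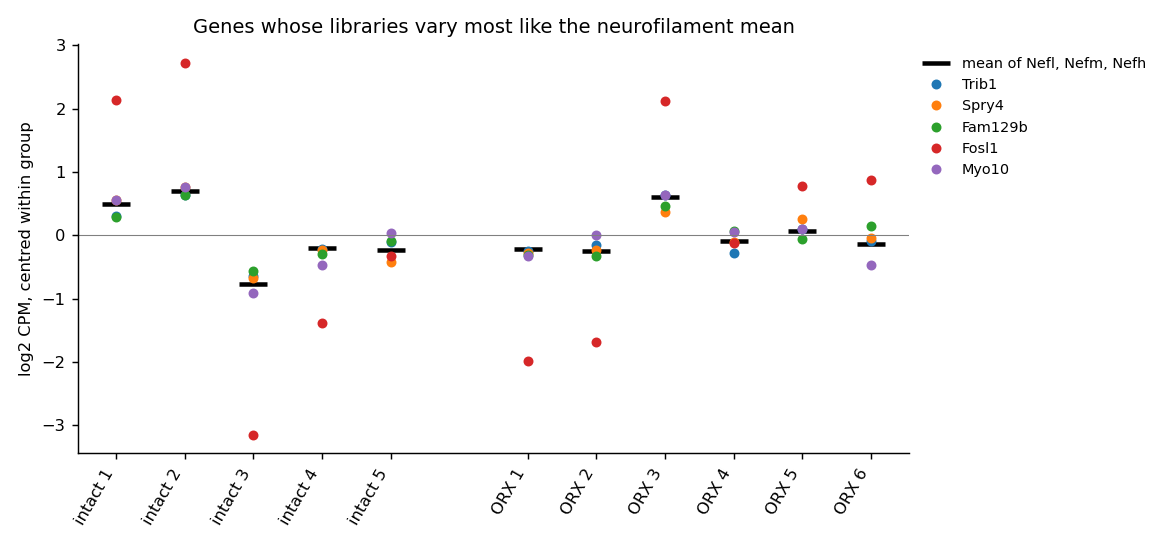
Each column is 1 library and the vertical axis is log2 CPM centred within its group, for the mean of Nefl, Nefm and Nefh (black dashes) and the 5 genes most like it (dots). Intact 1, intact 2 and ORX 3 are high and intact 3 is low in all of them, and Fosl1 has the widest swing.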

How the data were processed

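RNA of whole adrenal glands was sequenced after Illumina TruSeq library preparation, per the labels' protocols, which name both a stranded and an unstranded guide. The authors deposited whole-number read counts for each gene symbol, with no normalization. Software is listed in the submitters' processing notes, without roles: bcl2fastq (version 1.8.4) and Subread (version 1.5.1), with mm10 as the build. For annotation and strand setting, the sources used here give nothing. The table holds 2 identical copies, of which the first was used.

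Groups came from the labels (5 intact, 6 ORX). The labels do not say that each sample is a separate mouse, so the p-values reflect how far these samples scatter, part of which may be technical. Genes were kept by filterByExpr (minimum count 10, total 15), scaled with TMM, and fitted in R 4.3.3 with the two-sided quasi-likelihood test of edgeR 4.0.16; the 14139 p-values were adjusted by Benjamini-Hochberg. Alternatives used DESeq2 1.42.0 and limma 3.58.1. The test was checked on simulated counts of 14139 genes: 2.99% of 67 genes changed 1.5-fold, 41.8% of 67 changed 2-fold and 89.4% of 66 changed 4-fold were recovered, and 7.29% of calls were false.

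The members and the 15 other lists were chosen with earlier results of these data known. Lists held 205 distinct genes besides the members, 15 matched by older symbols. Named were all members, up to 4 called genes per list, 9 defining markers (1 is not reported here), the 5 nearest patterns, and, chosen after their values were seen or as overlapping or further marker genes, Tubb6, Tuba1a, Tuba1c, Stmn3, Stk16, Nt5c2, Slc18a3, Slc5a7, Isl1 and Hoxb9. Positions and exon lengths are GENCODE M21 on GRCm38 (mm10).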

Additional observations from a re-analysis of the deposited data

Results flagged for a closer look

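Of 88 groups of libraries examined, 9 had 1 library flagged by Dixon's test. In these its distance to its nearest neighbour, divided by the range of the group, was above the 95% critical value. Chance gives this for about 1 in 20 groups of independent, normally distributed values, which these CPM need not be. Among the members this was Stmn2 in intact 5, at 19.5 CPM against 26.5 to 28.1 in the other intact libraries. ORX 3 stood apart in Tbcd (53.4 CPM, the lowest of its group), Dclk1 (4.13 CPM, the highest) and Trib1 (43.5 CPM, the highest), and ORX 6 in Gal (106 CPM) and in Stk16 (125 CPM), the antisense neighbour of Tuba4a. Sox10 was low in ORX 1 (2.37 CPM), Acta1 was high in ORX 5 (5.85 CPM), and Chat had its 2 intact counts in intact 5 (0.152 CPM).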

How the results depend on the processing

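No scaling alternative turned the direction of a member, and the median of all genes was 0.01 with TMM or RLE and 0.05 with library totals. DESeq2 called 817 genes higher and 920 lower, against 428 and 450, and 28 list genes lower against 11. With the chromaffin score as a covariate, 85 genes were higher and 19 lower, and 0 members and 0 list genes were called in either direction. That fit turned the sign of Nefh (0.36), Prph (-0.46), Dbh (0.030), Chga (0.68), Spry4 (0.040), Fosl1 (1.37) and Myo10 (0.28). Limma voom called 4 members lower, without Nefm. When 1 library was left out, 224 to 551 genes were higher and 182 to 729 lower, 3 to 5 members were lower and 0 higher, and 3 to 9 list genes were higher and 4 to 24 lower. The sign also turned then in Prph (-0.12 to 0.15), Pnmt (-0.21 to 0.35, without ORX 6), Chga (-0.25 to 0.036, without intact 1) and Stk16 (-0.062 to 0.13, without ORX 6). Per kb of the longest transcript Stmn2 was at 7.90 CPM, against 4.82 with merged exons, and Nefm at 2.08, against 1.33. In each case the cause was not tested.

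The sample numbers did not pair the samples (correlations of same-numbered deviations -0.276 to 0.182, and 1 of 5 numbers best matched with itself). The fit with the sample number as a replicate block left out ORX 6, whose number has no intact sample. In that fit 222 genes were higher and 187 lower, and 1 member (Tubb3) and 1 list gene were lower. The sign of Pnmt (-0.23) and Stk16 (-0.065) turned, as it also did when ORX 6 alone was left out, without a block (-0.21 and -0.062).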
